A study of Mus musculus with 10 samples.

Results

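A set of 10 genes of the absorptive surface of the gut was followed across distal colons with and without T-cell transfer colitis. They are Vil1, Myo1a, Cdhr2 and Cdhr5 of the microvilli, the ectoenzymes Mep1a, Dpp4, Anpep and Alpi, and the guanylin peptide genes Guca2a and Guca2b. They were listed by name and no measured value entered the rule, but the list was chosen with earlier results of these data known. The counts below are thus not those of a blind list. Every probe set annotated to 1 of the genes alone was taken. This gave 14 probe sets for 10 genes out of 34945 such probe sets for 18193 genes. Mep1a has 2 probe sets, Dpp4 has 4 and the other 8 genes have 1 each.

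All 10 mice were Rag1-/- on a C57BL/6 background, and so made no T or B cells of their own, and each colon was measured on 1 Affymetrix mouse array. In 6 of them naïve T cells were transferred when the mice were 10 weeks old, and colitis followed, which the labels grade as severe in 3 colons and moderate in 3 colons. The 4 control mice received regulatory T cells (Treg) at the same age and are labelled as non-inflamed. Colons were collected 2 to 3 months after injection, at an age of 4 to 5 months, and RNA came from snap-frozen tissue of the distal colon. Both arms thus received lymphocytes, and a colon without transfer was not analysed here. Values are log2 expression per probe set after RMA, and a gene with several probe sets is given by the brightest of them on average. Array medians lay between 5.36 and 5.40, the lower quartile lay between 3.82 and 3.92, and Pearson's r over all probe sets was 0.9893 to 0.9958 within inflamed or within control and 0.9625 to 0.9834 between them. The number of arrays limits the precision.

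The brush border is the dense field of microvilli on the apical face of absorptive epithelial cells. Actin bundled by villin forms the core of each microvillus, myosin-1a ties the core to the membrane, and the protocadherins CDHR2 and CDHR5 link neighbouring tips. The membrane carries peptidases and phosphatases that act on the luminal contents, and the same epithelium releases guanylin and uroguanylin, which bind guanylate cyclase C and drive chloride and fluid secretion through cyclic GMP and CFTR.

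The members did not move as 1 group. Compared with control colons, inflamed colons had lower Mep1a, Guca2a, Dpp4, Cdhr2 and Cdhr5 and higher Guca2b and Myo1a (limma, Benjamini-Hochberg adjusted p under 0.05 over 18193 genes). Vil1, Anpep and Alpi did not pass the test. The largest difference of the 10 was that of Mep1a, at 7.15-fold lower, and the smallest difference that passed was that of Cdhr5, at 1.39-fold lower. Thus 7 of 10 members passed, 5 lower and 2 higher, where the same test called 39.7% of all genes (21.2% lower and 18.5% higher). The median log2 difference over the 10 members was -0.55, and over all genes it was 0.03. The 6 inflamed and 4 control values did not overlap for 6 members, 4 lower and 2 higher, where 31.7% of all genes had groups that did not overlap (17.1% lower and 14.6% higher). Of the 14 probe sets 8 were lower and 2 higher, where 35.8% of all probe sets were called (19.4% lower and 16.5% higher). These arrays measured the whole tissue, so fewer cells of a type and less RNA per cell cannot be told apart.

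**Figure D1:**
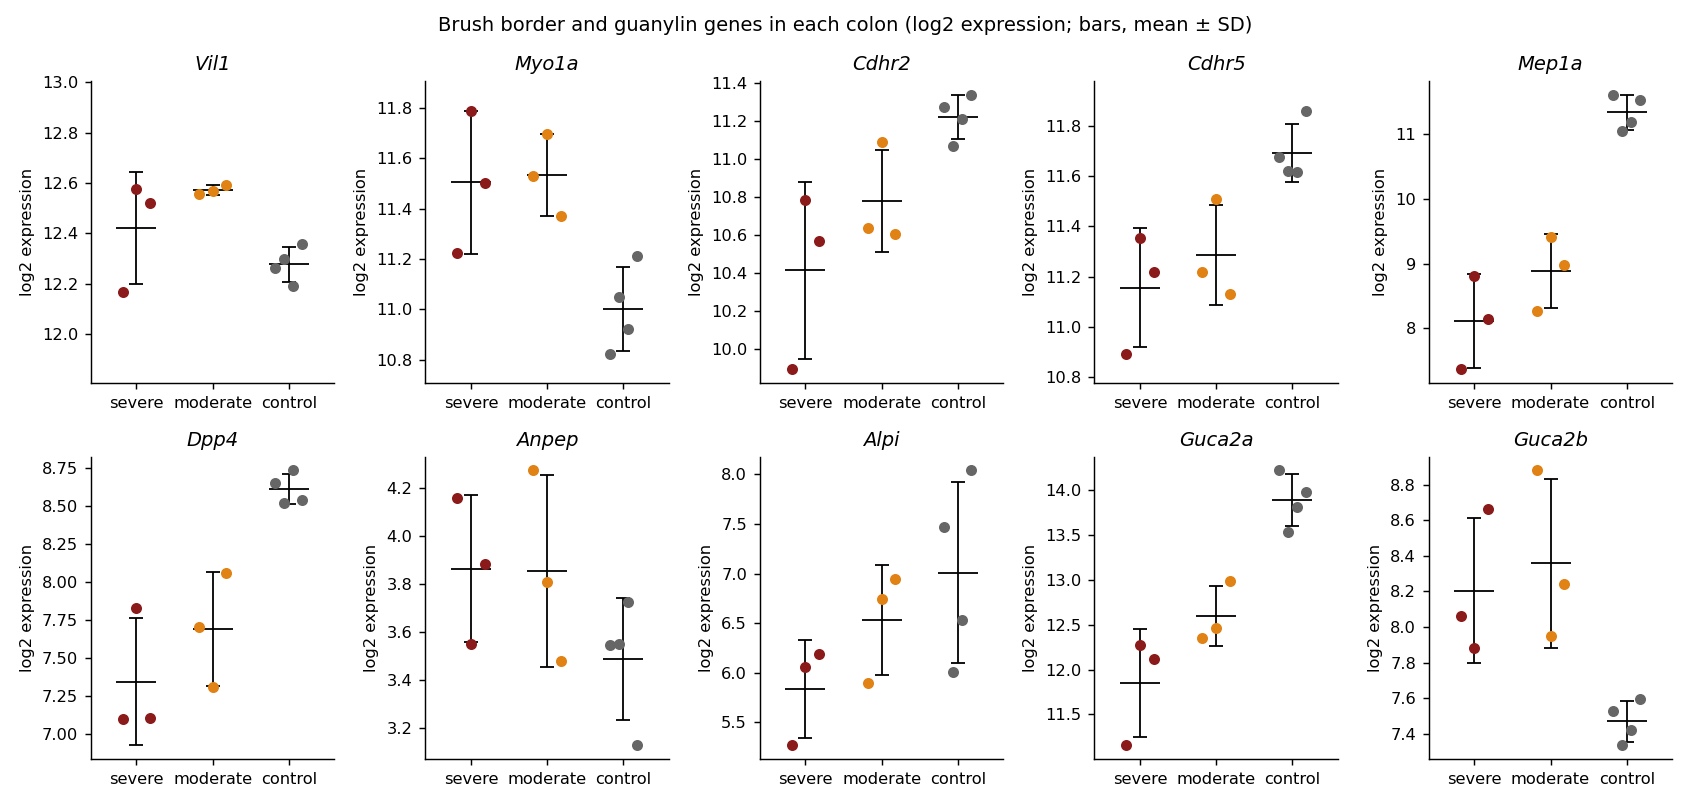
Log2 expression of the 10 genes in each colon, with severe (3), moderate (3) and control (4) colons from left to right, 1 point per array, and bars for mean ± SD. Each panel has its own axis, which does not start at 0. For Mep1a, Guca2a, Dpp4 and Cdhr5 all 6 inflamed colons sit below every control colon, and for Guca2b and Myo1a all 6 sit above.

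Vil1 encodes villin, the actin bundling and severing protein of the microvillus core. Its values were 12.17, 12.58 and 12.52 in severe colons, 12.56, 12.57 and 12.59 in moderate colons, and 12.26, 12.30, 12.19 and 12.36 in control colons. Severe replicate 1 was the lowest array of all 10, while the other 5 inflamed colons were above every control. The difference between inflamed and control was 0.22 (standard error 0.09, 95% confidence interval 0.025 to 0.41, not adjusted for the number of genes) and did not pass the test (adjusted p = 0.0704). Without severe replicate 1 it was 0.29 and passed (adjusted p = 0.0038).

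Myo1a, the motor that tethers the actin core to the microvillus membrane, was higher in inflamed colons. Its values were 11.22, 11.79 and 11.50 in severe colons, 11.53, 11.70 and 11.37 in moderate colons, and 10.82, 11.05, 10.92 and 11.21 in control colons. The groups did not overlap, although severe replicate 1 and control replicate 4 lay next to each other. The difference was 0.52 (standard error 0.12, adjusted p = 0.0038), or 1.43-fold higher in inflamed colons.

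Both protocadherins of the intermicrovillar links were lower. Cdhr2 had values of 9.89, 10.78 and 10.57 in severe colons, 10.64, 11.09 and 10.61 in moderate colons, and 11.27, 11.07, 11.21 and 11.34 in control colons. Moderate replicate 2 lay within the control range and the other 5 inflamed colons lay below it. The difference was -0.62 (standard error 0.18, adjusted p = 0.0154), or 1.54-fold lower in inflamed colons. Cdhr5, the partner of Cdhr2 in the tip link, had values of 10.89, 11.36 and 11.22 in severe colons, 11.22, 11.51 and 11.13 in moderate colons, and 11.67, 11.62, 11.61 and 11.86 in control colons. Every inflamed colon was below every control colon, and the highest inflamed array was again moderate replicate 2. The difference was -0.47 (standard error 0.11, adjusted p = 0.00452). So of the 4 structural members, the transcripts of the 2 link proteins fell and that of the membrane motor rose. The transcript of the core bundler did not pass the test.

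Around these 4 genes, 16 other genes of the microvillus core, membrane link and tip complex were measured, with 6 higher, 1 lower and 9 not past the threshold, and a median log2 difference of 0.14. Among all genes, 18.5% were called higher and 21.2% lower. Eps8, which caps and bundles actin at the microvillus tip, rose by 0.69 (standard error 0.11, adjusted p = 0.000392), and Plec, the cytolinker plectin, rose by 0.61 (adjusted p = 0.000232). Baiap2l1, a membrane-bending partner of Eps8, rose by 0.60 (adjusted p = 0.00139), but its difference was 0.15 (adjusted p = 0.352) when its probe sets were averaged. Cobl, an actin nucleator of the terminal web, fell by 0.84 (standard error 0.12, adjusted p = 0.000186). Of the tip complex that anchors Cdhr2 and Cdhr5, the motor Myo7b differed by -0.28 (adjusted p = 0.0621) and the scaffolds Ush1c and Anks4b by -0.22 (adjusted p = 0.168) and -0.07 (adjusted p = 0.713), and none of them passed. These partners of both protocadherins are named outside the rule for named genes and after their values were seen.

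Mep1a encodes the alpha subunit of meprin, a zinc metalloprotease of the brush border that is also shed into the lumen. Its values were 7.37, 8.82 and 8.15 in severe colons, 8.27, 9.41 and 8.98 in moderate colons, and 11.59, 11.04, 11.18 and 11.53 in control colons. The highest inflamed colon, moderate replicate 2, was more than 1 log2 unit below the lowest control, and severe replicate 1 was the lowest of all. The difference was -2.84 (standard error 0.32, 95% confidence interval -3.55 to -2.13, adjusted p = 4.22e-05). The second Mep1a probe set gave 4.45, 5.79 and 5.39 in severe colons, 5.42, 6.54 and 6.02 in moderate colons, and 8.57, 8.54, 8.30 and 8.52 in control colons, a difference of -2.88 (adjusted p = 1.8e-05 over 34945 probe sets). The arrays kept the same order from lowest to highest among the inflamed colons in both probe sets.

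Dpp4, or CD26, is a serine peptidase that cuts dipeptides from peptide ends and is carried by enterocytes and also by T cells. It had values of 7.10, 7.83 and 7.10 in severe colons, 7.70, 7.31 and 8.06 in moderate colons, and 8.66, 8.52, 8.74 and 8.54 in control colons. All inflamed colons were below all controls. The difference was -1.10 (standard error 0.18, adjusted p = 0.000548), or 2.14-fold lower in inflamed colons. Among its other 3 probe sets 2 also fell, 1 by 1.38 (adjusted p = 2.7e-05) and 1 by 1.01 (adjusted p = 0.00285). The remaining probe set averaged 5.62 ± 0.14 in inflamed colons and 5.80 ± 0.10 in control colons (SD, n = 6 and 4), a difference of -0.18 that did not pass (adjusted p = 0.135). The T cell markers moved the other way from Dpp4. Of 10 measured T cell markers 9 rose, and their summed linear level, in arbitrary units, was 941 to 1596 in inflamed colons and 560 to 596 in control colons. The part of T cells in the Dpp4 values was not tested.

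Anpep, aminopeptidase N or CD13, is a zinc peptidase that is abundant on the small intestinal brush border and is also found on myeloid cells and fibroblasts. Its values were 4.16, 3.55 and 3.88 in severe colons, 4.27, 3.81 and 3.48 in moderate colons, and 3.54, 3.55, 3.72 and 3.13 in control colons. These lie around the lower quartile of the arrays, and the groups overlapped. The difference was 0.37 (standard error 0.17, 95% confidence interval 0.0069 to 0.74, adjusted p = 0.0993) and did not pass the test at this low signal. Leaving out moderate replicate 3 brought the adjusted p to 0.0455, at a difference of 0.45. Macrophage and monocyte markers rose in 9 of 9 cases, with summed levels of 8273 to 19326 in inflamed colons and 2692 to 3130 in control colons, and neutrophil markers rose in 8 of 8, with summed levels of 2792 to 25743 in inflamed colons and 166 to 320 in control colons. Of 10 fibroblast markers 1 rose, 6 fell and 3 missed the threshold, with summed levels of 5880 to 15278 in inflamed colons and 13595 to 17079 in control colons. The part of these cells in the Anpep values was not tested.

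Of 7 other brush border peptidases measured, 3 were lower, 0 were higher and 4 missed the threshold, with a median of -0.13. Naaladl1, a peptidase of the ileal surface, fell by 2.11 (standard error 0.20, adjusted p = 1.46e-05). Enpep, glutamyl aminopeptidase, fell by 1.61 (standard error 0.17, adjusted p = 2.4e-05). Mep1b, the beta subunit of meprin that anchors the alpha subunit to the membrane, fell by 0.87 (standard error 0.23, adjusted p = 0.0107). Counted with the members, 5 of 10 measured peptidases fell and 0 rose, where 21.2% of all genes were called lower and 18.5% higher. Mme, Tmprss15 and Anpep, which did not fall, averaged 3.41, 3.55 and 3.49 in control colons. This was below the array lower quartiles of 3.82 to 3.92. Ace and Xpnpep2 did not fall either, at differences of -0.13 (adjusted p = 0.336) and 0.17 (adjusted p = 0.212). Both lay above those quartiles on every array, so low signal was not shared by all peptidases that did not fall.

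Alpi, intestinal alkaline phosphatase, removes phosphate from bacterial lipopolysaccharide and nucleotides at the gut surface. Its values were 5.27, 6.06 and 6.19 in severe colons, 5.90, 6.75 and 6.94 in moderate colons, and 7.47, 6.00, 6.53 and 8.04 in control colons. The groups overlapped, and the controls spread over a wider range than the inflamed colons, with control replicates 2 and 3 inside the inflamed range. The difference was -0.83 (standard error 0.40, 95% confidence interval -1.70 to 0.048) and did not pass (adjusted p = 0.124). Without control replicate 2 it was -1.16 and passed (adjusted p = 0.0361).

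Of 6 other alkaline phosphatases and glycosidases measured, 2 were higher, 0 were lower and 4 missed the threshold, where 18.5% of all genes were called higher and 21.2% lower. Mgam, maltase-glucoamylase, rose by 0.34 (standard error 0.09, adjusted p = 0.00968), and Alpl, the tissue-nonspecific alkaline phosphatase, rose by 0.25 (standard error 0.066, adjusted p = 0.0104). Both lost the call relative to the mean of 20 pan-epithelial genes, at 0.22 (adjusted p = 0.0832) for Mgam and 0.13 (adjusted p = 0.237) for Alpl. The Alpl signal was low, with means of 4.70 in inflamed and 4.45 in control colons, below the array medians of 5.36 to 5.40. Of the 4 that missed the threshold, Akp3, Lct and Treh averaged 4.31, 2.93 and 3.14 in control colons, also below the medians.

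**Figure D2:**
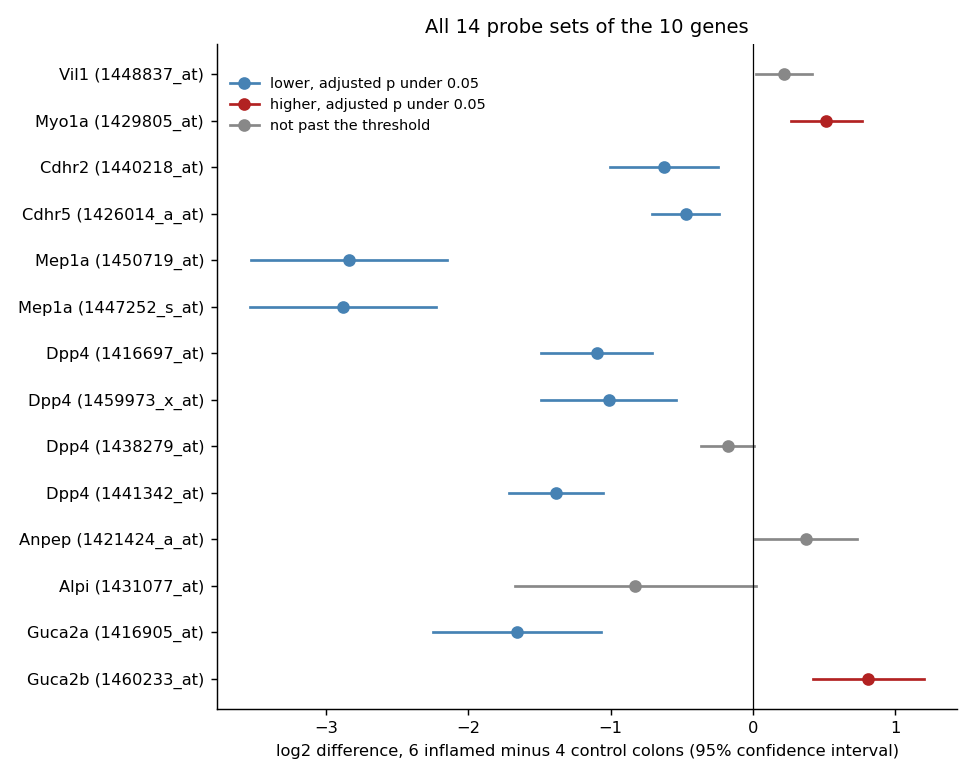
Log2 difference between 6 inflamed and 4 control colons for each of the 14 probe sets, with 95% confidence intervals that are not adjusted for the number of probe sets. Points left of 0 are lower in inflamed colons, and color shows the side of the adjusted p threshold. The Mep1a probe sets lie at -2.84 and -2.88, and 3 of the 4 Dpp4 probe sets lie at -1.01 or below.

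Guca2a and Guca2b encode the prohormones of guanylin and uroguanylin, ligands of the same receptor. They lie next to each other on chromosome 4 with 0 genes between them in the RefSeq table, on opposite strands. Their upstream regions are shown because neighbouring genes of 1 pathway differed in opposite directions, and that of Dpp4 because it holds the same GATA letters as Guca2a. Each run holds the 250 bases before the annotated start, 5′ to 3′ on the strand of the gene, from RefSeq on GRCm38.p6. Capitals mark AGATAA, the letters bound by GATA factors, or its reverse complement TTATCT, and GTTAAT, part of the HNF1 site.
Guca2a, plus strand, chr4:119637482-119637731: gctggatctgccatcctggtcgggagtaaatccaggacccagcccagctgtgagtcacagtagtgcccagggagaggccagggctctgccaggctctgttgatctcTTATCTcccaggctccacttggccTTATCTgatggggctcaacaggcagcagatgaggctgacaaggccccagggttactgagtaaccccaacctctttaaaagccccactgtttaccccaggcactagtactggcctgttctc
Guca2b, minus strand, chr4:119658946-119659195: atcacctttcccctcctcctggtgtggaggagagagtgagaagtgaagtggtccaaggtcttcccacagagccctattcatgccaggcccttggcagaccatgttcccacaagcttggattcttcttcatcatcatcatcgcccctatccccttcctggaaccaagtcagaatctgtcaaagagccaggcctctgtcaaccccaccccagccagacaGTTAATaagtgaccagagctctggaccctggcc
Dpp4, minus strand, chr2:62412232-62412481: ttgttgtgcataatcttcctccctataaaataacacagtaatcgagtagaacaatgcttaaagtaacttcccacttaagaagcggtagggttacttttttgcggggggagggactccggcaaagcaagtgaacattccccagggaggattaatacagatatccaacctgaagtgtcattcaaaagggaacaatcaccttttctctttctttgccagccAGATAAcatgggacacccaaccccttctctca

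Both strands of the window from 250 bases before to 50 bases after the start were searched for these letters, for CATAAA, the core of CDX sites, and for CAAAGTCCA, a site of HNF4. The promoters of all 10 members were found, and 7 of the 10 genes had passed the test. Guca2a held TTATCT with first bases at -144 and -120, and Dpp4 held AGATAA at -32. GTTAAT began at -33 in Guca2b and at -54 in Cdhr2. CATAAA began at -39 in Cdhr5, and its reverse complement TTTATG began at 13 bases after the start in Mep1a, while Myo1a held none of the 4 motifs and none of the 7 held CAAAGTCCA. Among the 3 genes that did not pass, Alpi held CAAAGTCCA at -19, and Vil1 and Anpep held none of the motifs. No motifs overlapped. Among 32851 RefSeq promoters of the same length, 11.2% held AGATAA, 7.1% held GTTAAT, 11.9% held CATAAA and 0.475% held CAAAGTCCA on either strand. A match describes letters in this window only.

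Guca2a was far lower in inflamed colons. Its values were 11.16, 12.28 and 12.12 in severe colons, 12.35, 12.46 and 12.98 in moderate colons, and 14.22, 13.53, 13.81 and 13.98 in control colons. The 3 groups did not overlap, with every severe colon below every moderate colon and every moderate colon below every control. The nearest severe and moderate colons lay close together, at 12.28 and 12.35. Severe and moderate colons were not shown to differ (limma, adjusted p = 0.957). The difference between inflamed and control was -1.66 (standard error 0.28, 95% confidence interval -2.26 to -1.05, adjusted p = 0.000562), or 3.16-fold lower in inflamed colons.

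Guca2b differed in the other direction. Its values were 8.06, 7.88 and 8.66 in severe colons, 8.88, 7.95 and 8.24 in moderate colons, and 7.53, 7.34, 7.42 and 7.60 in control colons. Each inflamed colon was above each control, and severe and moderate colons overlapped. The difference was 0.81 (standard error 0.18, 95% confidence interval 0.41 to 1.21, adjusted p = 0.00405), or 1.75-fold higher in inflamed colons.

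The divergence of the pair was also expressed within each array, as Guca2a minus Guca2b. The size of that difference depends on both probe sets, and only its change between groups was read. It averaged 3.94 ± 0.68 in inflamed colons (SD, n = 6, range 3.09 to 4.74) and 6.41 ± 0.21 in control colons (SD, n = 4, range 6.19 to 6.69). The change was -2.47. Its exact permutation p of 0.00476 over 210 splits, two-sided, is the smallest that 6 against 4 arrays can give, and it follows from the separation of the groups in each gene, which fixes that the difference cannot overlap, so it adds no support of its own.

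**Figure D3:**
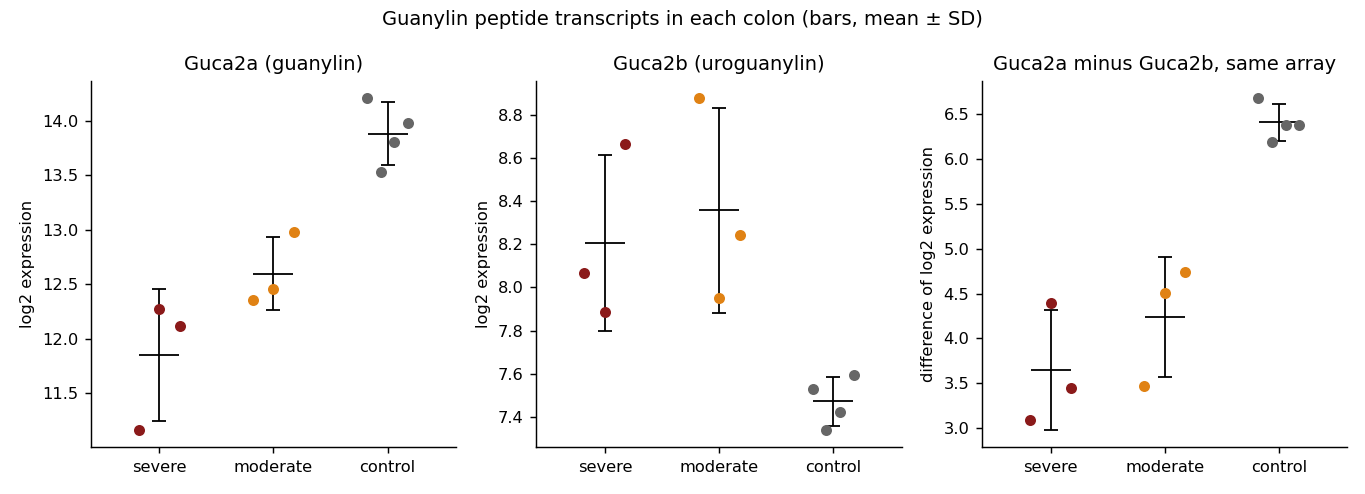
Log2 expression of Guca2a and of Guca2b, and their difference on the same array, in severe (3), moderate (3) and control (4) colons from left to right, with bars for mean ± SD. The axes do not start at 0. Guca2a is lower and Guca2b is higher in all 6 inflamed colons than in every control, and the within-array difference is 3.09 to 4.74 in inflamed colons against 6.19 to 6.69 in control colons.

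Of the guanylin pathway 9 genes were measured besides the pair, and 3 were lower, 0 were higher and 6 missed the threshold, with a median of -0.44. Over all genes, 21.2% were called lower and 18.5% higher. Cftr, the chloride channel opened downstream of cyclic GMP, fell by 1.34 (standard error 0.21, adjusted p = 0.000335). Prkg1, a cyclic GMP-dependent kinase, fell by 1.21 (standard error 0.13, adjusted p = 2.44e-05), and Pde5a, a phosphodiesterase that degrades cyclic GMP, fell by 0.89 (standard error 0.070, adjusted p = 4.86e-06). Prkg2, the other cyclic GMP-dependent kinase of the list, differed by -0.18 (standard error 0.26) and did not pass (adjusted p = 0.626). It averaged 7.08 in control colons. Prkg1 and Pde5a are also well known from smooth muscle. All 12 smooth muscle markers fell, with summed levels of 10889 to 19029 in inflamed colons and 34971 to 45668 in control colons, and their part in these falls was not tested. Gucy2c, the receptor guanylate cyclase C, averaged 10.00 in inflamed colons and 10.02 in control colons, a difference of -0.02 (adjusted p = 0.946) whose sign changed between settings.

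Transcription factors known to act in enterocytes were a further point of comparison. Of 13 measured, 2 were higher, 4 were lower and 7 missed the threshold, with a median of -0.11. The same test called 39.7% of all genes (21.2% lower and 18.5% higher). Prdm1, also called Blimp1, rose by 3.05 (standard error 0.17, adjusted p = 1.11e-06), and Elf3, an epithelial ETS factor, rose by 0.38 (adjusted p = 0.00615). Prdm1 is likewise known from effector T cells, and the T cell marker levels given with Dpp4 were higher in inflamed colons. Their part in the Prdm1 value was not tested. Among the factors past the threshold, the largest falls were those of Ppara, a fatty acid-sensing nuclear receptor, by 1.48 (standard error 0.11, adjusted p = 3.63e-06), of Vdr, the vitamin D receptor, by 1.09 (standard error 0.20, adjusted p = 0.00108), and of Klf5, a zinc finger factor of proliferating crypt cells, by 0.30 (adjusted p = 0.0253). The Klf5 call was lost without control replicate 2 (-0.25, adjusted p = 0.0817), without control replicate 3 (-0.24, adjusted p = 0.0868) and with the replicate number as a block (adjusted p = 0.0646).

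**Figure D4:**
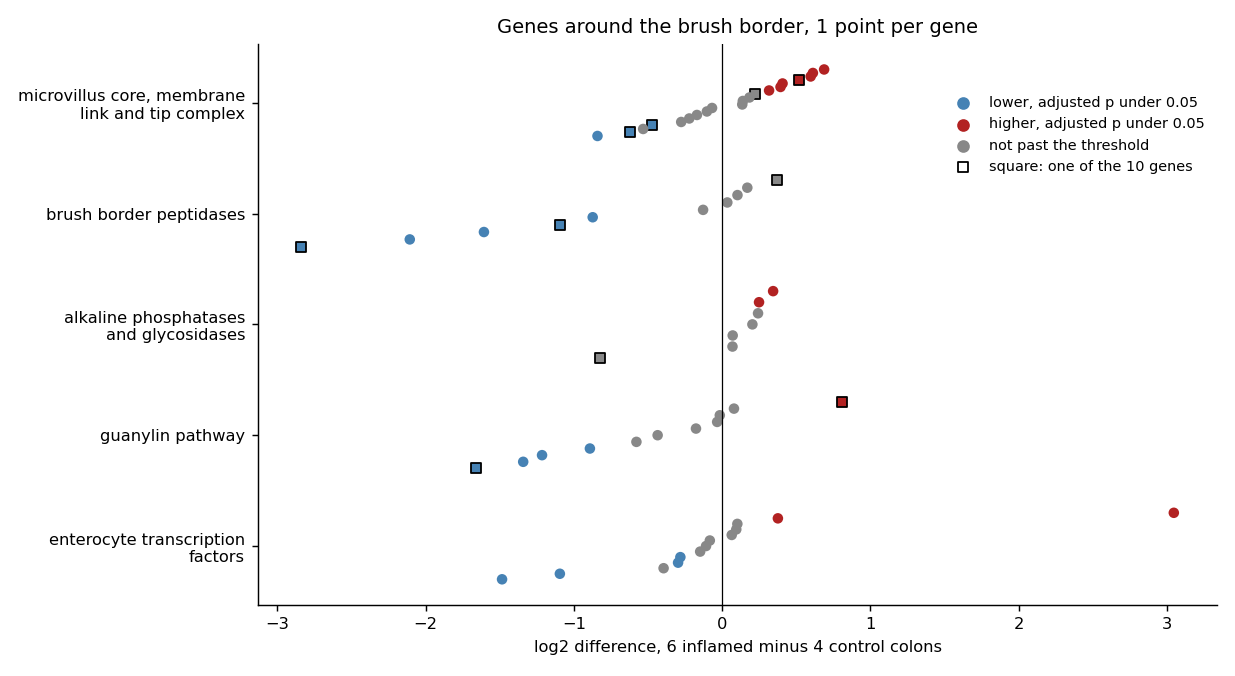
Log2 difference between 6 inflamed and 4 control colons for each measured gene of 5 lists, 1 point per gene, with squares for the 10 genes and color for the side of the adjusted p threshold. The height of a point within its row carries no value. Mep1a and Dpp4 are among 5 peptidases that fell, and Guca2b is the only gene of its list that rose.

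Markers of the epithelium as a whole gave a reference for the members. Of 20 such pan-epithelial genes 6 were higher, 3 were lower and 11 missed the threshold, and their summed level was 99462 to 108299 in inflamed colons and 93893 to 99185 in control colons. Relative to the mean of these genes on the same array, the 7 calls among the members all held, at -2.96 for Mep1a, -1.78 for Guca2a, -1.22 for Dpp4, -0.75 for Cdhr2, -0.59 for Cdhr5, 0.69 for Guca2b and 0.39 for Myo1a. Of 13 genes of colonic absorptive cells, 7 fell and 0 rose, with summed levels of 46866 to 74760 in inflamed colons and 89374 to 95229 in control colons. Of 14 genes of small intestinal absorptive cells, 4 fell and 1 rose, with summed levels of 2182 to 6466 in inflamed colons and 7550 to 13019 in control colons. For these counts too, the share over all genes was 21.2% lower and 18.5% higher. The part of either cell type in the members' values was not tested. As to the tissue label, the small intestinal list was not uniformly low. Lct and Treh, disaccharidases of the small intestine, averaged 3.00 and 3.21 in inflamed colons and 2.93 and 3.14 in control colons, below the lower quartile of every array, but Fabp2, Slc5a1 and Apob averaged 10.72, 10.29 and 9.47 in inflamed colons and 12.46, 10.86 and 10.70 in control colons, far above the array medians. Car1 and Hoxb13, markers of the colon, averaged 12.90 and 10.70 in inflamed colons and 13.82 and 11.57 in control colons, also far above the medians. Fabp6, also of the small intestinal list, was 8.07 in moderate replicate 1 and 9.97 in moderate replicate 3. It was 5.44 to 6.09 in the other inflamed colons and 5.86 to 7.72 in control colons. What this reflects was not tested. The genes named for the tissue label were chosen after their values were seen.

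The grades of inflammation were then set separately against the same 4 controls, so that the 2 comparisons share those samples. In severe colons 5 members fell and 2 rose, where 35% of all genes passed the test (18.9% lower and 16.1% higher). The severe and control values did not overlap for 7 members, 5 lower and 2 higher, where 43.6% of all genes had groups that did not overlap (22% lower and 21.6% higher). In moderate colons 4 members fell and 3 rose, where 29.9% of all genes passed (16.7% lower and 13.2% higher). The moderate and control values did not overlap for 7 members, 4 lower and 3 higher, where 38.4% of all genes had groups that did not overlap (19.9% lower and 18.4% higher). Mep1a differed by -3.22 in severe colons (standard error 0.33, adjusted p = 4.5e-05) and by -2.45 in moderate colons (standard error 0.33, adjusted p = 0.000392). For Guca2a the differences were -2.03 in severe colons (adjusted p = 0.000194) and -1.28 in moderate colons (adjusted p = 0.00429). Dpp4 differed by -1.27 in severe colons (adjusted p = 0.000666) and by -0.92 in moderate colons (adjusted p = 0.00581). These 3 genes were thus lower in both grades, and no array left out ended any of the 6 calls.

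The smaller differences stood closer to the threshold. Cdhr2 differed by -0.81 in severe colons (adjusted p = 0.00808) and by -0.44 in moderate colons, where it did not pass (adjusted p = 0.114). Cdhr5 differed by -0.54 in severe colons (adjusted p = 0.00783) and by -0.41 in moderate colons (adjusted p = 0.0357). Vil1 passed only in moderate colons, at 0.30 (adjusted p = 0.0491), against 0.14 in severe colons (adjusted p = 0.311). Compared directly, severe and moderate colons differed by -0.36 in Cdhr2 (adjusted p = 0.986) and by -0.15 in Vil1 (adjusted p = 0.99), so neither gene was shown to differ between the grades. On the higher side, Guca2b differed by 0.73 in severe colons (adjusted p = 0.0247) and by 0.89 in moderate colons (adjusted p = 0.0118), and Myo1a by 0.50 (adjusted p = 0.0185) and 0.53 (adjusted p = 0.0171). Alpi was -1.17 in severe colons (adjusted p = 0.0666) and -0.48 in moderate colons (adjusted p = 0.464), and Anpep was 0.38 and 0.37, neither past the threshold. Several of these calls rested on single arrays. In severe colons the Myo1a call was lost without control replicate 1 (adjusted p = 0.0513), severe replicate 2 (0.0771) or severe replicate 3 (0.0536), and the Guca2b call without control replicate 2 (0.0593), control replicate 3 (0.0564) or severe replicate 3 (0.112). Alpi passed in severe colons without control replicate 2 (-1.51, adjusted p = 0.0176), and Vil1 without severe replicate 1 (0.27, adjusted p = 0.0347). In moderate colons the Myo1a call was lost without moderate replicate 2 (adjusted p = 0.0667) and Cdhr2 passed without severe replicate 1 (0.0264), whose spread enters the shared estimate. The Cdhr5 call in moderate colons was lost without any 1 of the 4 controls, moderate replicate 1 or moderate replicate 3 (adjusted p of 0.0538 to 0.12), and the Vil1 call without any 1 of the 4 controls, severe replicate 3 or any 1 of the 3 moderate colons (0.0583 to 0.114).

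**Figure D5:**
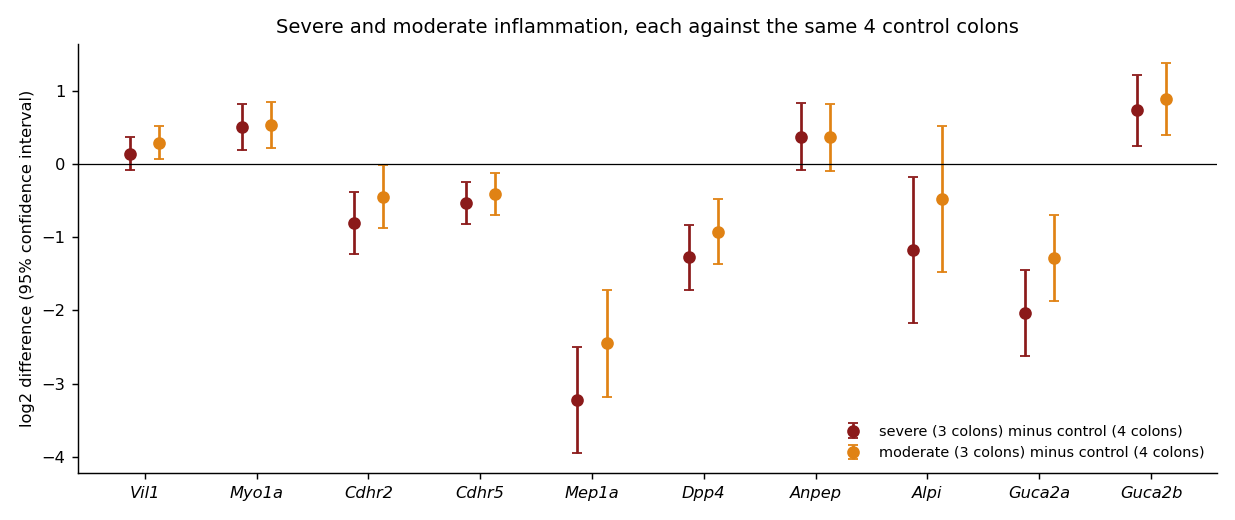
Log2 difference of severe (3) and of moderate (3) colons from the same 4 control colons for the 10 genes, with 95% confidence intervals that are not adjusted for the number of genes. For Mep1a the values are -3.22 in severe and -2.45 in moderate colons, for Guca2a -2.03 and -1.28, and the intervals of the pairs overlap for every gene.

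Severe and moderate colons were also compared directly. No gene of 18193 passed the adjusted threshold (limma, 0%), and 922 genes, or 5.07%, had an unadjusted p under 0.05, among them 1 member. By the methods' t-test 0 genes passed after adjustment and 643 had an unadjusted p under 0.05. In all, 9 of the 10 members were lower in severe than in moderate colons, where 51.4% of all genes were, with a median of -0.25 over the members. Guca2a was the 1 member whose groups did not overlap, which held for 8% of all genes (4.18% lower), and it differed by -0.75 (standard error 0.28, 95% confidence interval -1.37 to -0.12, adjusted p = 0.957). For Mep1a the difference was -0.77 (standard error 0.35, 95% confidence interval -1.55 to 0.0080, adjusted p = 0.98). Severe replicate 1 was the lowest of all 10 arrays for 7 of the 10 members. Without it 8 of the 10 were lower in severe than in moderate colons, with a median of -0.12, a Guca2a difference of -0.40 and a Mep1a difference of -0.40.

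The genes whose values over the 10 arrays lay closest to those of the 3 members with a called log2 difference of at least 1 were found by the root mean square difference of values centred on each gene's mean. For Mep1a they were Hsd3b3, Gm1123 and Ces2a, at 0.206, 0.234 and 0.243 log2 units, where Mep1a itself had an SD of 1.57 over the arrays. For Guca2a they were Hpd, Tcea3 and Dgkh, at 0.169, 0.237 and 0.240, with an SD of 0.98 for Guca2a. For Dpp4 they were Rnf186, Wfdc1 and Snhg18, at 0.150, 0.188 and 0.191, with an SD of 0.64 for Dpp4. All 9 of these genes were also lower in inflamed colons, which their selection for likeness fixes.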

How the data were processed

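RNA of 10 distal colons was measured on Affymetrix mouse arrays, 1 per mouse. The deposited values are log2 expression per probe set, which the authors computed by RMA in Affymetrix Expression Console, so that background was corrected, arrays were brought to a common distribution and probes were summarised; versions are not given in the sources used here. The labels name Trizol and the study's methods a Qiagen kit for RNA extraction. Scan dates and detection calls were not used here.

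Of 45101 probe sets, the platform annotation supplied gives 1 gene for 34945, several for 932 and none for 9160, and 64 are control probe sets. A gene with several probe sets took the brightest on average. The main test was limma 3.58.1 under R 4.3.3, with lmFit and eBayes, two-sided p-values, Benjamini-Hochberg adjusted across the 18193 genes, and a call at an adjusted p under 0.05. A model of 2 groups set inflamed against control, while a model of 3 groups, with a common estimate of the spread, gave the contrasts of severe and moderate colons. All 14 probe sets were also tested over 34945 probe sets. The pair of guanylin genes was tested by exact permutation. Tests were checked on simulated data. Promoters of all 10 genes were matched by symbol in a RefSeq table of GRCm38.p6. Plots used matplotlib 3.10.9 under Python 3.11.15.

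The named genes are all 10 members, Gucy2c, up to 3 rises and 3 falls past the threshold in each of 5 lists of related genes, and the 3 genes nearest to each member called with a log2 difference of at least 1. The members and lists were chosen with earlier results of these data known. A few further list genes were named after their values were seen. Some list genes have no probe set of their own and are not analysed here. Alternatives varied the value per gene, a filter on genes with a mean under 5, how arrays were scaled, array weights, the model of the variance, the t-test of the methods, which groups were fitted together, a replicate block and each array left out in turn.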

Additional observations from a re-analysis of the deposited data

Results flagged for a closer look

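In 1 case, a single colon stood far from the rest of its group. Vil1 was 12.17 in severe replicate 1, while the other 5 inflamed colons lay between 12.52 and 12.59, so that most of the inflamed range was the gap below them. The cutoff for naming a gap is one that chance alone passes in about 1 of 20 groups, and 20 groups of member values were examined. How often chance gives a gap as large as that of Vil1 was not computed. The same array was the lowest of 10 for 7 members.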

How the results depend on the processing

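Between inflamed and control colons, 205 of 209 alternatives for the 10 members kept the direction and the side of the threshold and 4 brought a gene past it. These were Vil1 with array weights (0.22, adjusted p = 0.0375) and without severe replicate 1, Anpep without moderate replicate 3 and Alpi without control replicate 2. The 7 calls held in all alternatives run, with values of -3.02 to -2.61 for Mep1a, -1.81 to -1.45 for Guca2a, -1.22 to -0.92 for Dpp4, -0.75 to -0.48 for Cdhr2, -0.59 to -0.41 for Cdhr5, 0.69 to 0.89 for Guca2b and 0.39 to 0.59 for Myo1a. The grades were less steady: 9 of 209 alternatives lost a call in severe and 21 in moderate colons. Members higher in severe colons numbered 0 under the methods' t-test and 0 to 3 with 1 array left out, against 2 in the test reported. In moderate colons they numbered 1 to 3, against 3, and the Vil1 call was lost in each of 11 alternatives, with an adjusted p of up to 0.169.

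Relative to the pan-epithelial mean, all genes higher in inflamed colons numbered 1983 (3372 as reported). They numbered 1743 in severe colons (2929) and 1406 in moderate colons (2405). That mean was itself 0.12 higher in inflamed colons. The largest rise among its 20 genes was that of Cldn4, at 1.58, and the median difference over the 20 genes was 0.08. Severe against moderate, leaving out 1 array gave 0 to 14 genes higher and 0 to 6 lower. Directions that turned were not called in any setting. Gucy2c was 0.0026 with array weights, 0.019 with the replicate block and -0.070 to 0.10 with 1 array left out. Between severe and moderate colons, Anpep was -0.0077 relative to the pan-epithelial mean, -0.0089 with array weights and -0.18 to 0.22 with 1 array left out, where Myo1a ranged from -0.17 to 0.11, Cdhr5 from -0.23 to 0.00053 and Guca2b from -0.38 to 0.11. The causes were not tested.

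The labels share replicate numbers 1 to 3. Deviations of same-numbered samples from their group means gave r = -0.08 to 0.29 over 9 pairs, 2 above 0.1. These 2 were severe with moderate colons, at 0.29 for replicate 1 and 0.25 for replicate 2, against -0.03 for replicate 3. Of 9 samples, 4 correlated best with their own number. With the number as a replicate block, 2 members were higher and 5 lower in inflamed colons, the same counts as without it, while 3028 genes were higher and 3597 lower. In moderate colons the block gave 2 higher and 3 lower members, with 2088 genes higher and 2743 lower. Signal limits Anpep and Alpl, and 3 arrays per grade limit every comparison of severe with moderate colons.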
